A study of Mus musculus with 16 samples.

Results

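The RNA-seq libraries WTLi and WTVeh, 8 of the 16 in the series, were compared to find which transcripts differ in wild type (WT) mouse hippocampal cultures after lithium (Li). WTVeh were 4 libraries of WT cultures given water as vehicle and WTLi were 4 libraries of WT cultures given 0.1 mmol/l Li. Both additions began at day in vitro (DIV) 9 and lasted 5 days, and RNA was isolated at DIV 14. Each WTLi library was set against the WTVeh library with its replicate number, called cultures 1 to 4 here. The labels give the shared number and not its meaning, and the libraries of a number deviated together. The other 8 libraries, KOVeh and KOLi, came from Shank3∆11(-/-) (KO) cultures under the same treatments and served for a side-by-side reading. The cells were taken from newborn pups, hippocampi of several pups were pooled in a preparation, and neurons and glia grew together. In such bulk RNA, fewer cells of a type and less RNA per cell cannot be told apart.

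Li is a mood stabilizer with a small number of known direct targets. It competes with magnesium in glycogen synthase kinase 3 (GSK3) and in a family of phosphatases that release inositol from inositol phosphates. Inhibited GSK3 no longer marks beta-catenin for destruction, and beta-catenin with TCF and LEF factors then induces genes such as Axin2. Neurons and glia both contain these targets, and much of the work on them in cultured cells used higher Li concentrations.

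The libraries held 17666399 to 35188300 counts, and every WTLi library was shallower than the WTVeh library of its culture, by a ratio of 0.717 to 0.879. The counts of cultures 1 to 3 were deposited as batch 1 and those of culture 4 as batch 2. Each Li comparison was thus made within a batch. The batch 2 libraries stood apart in some genes with near-identical copies elsewhere in the genome. Gapdh, a glycolytic enzyme with many processed copies, was at 1328 to 1643 CPM (counts scaled to a common library total, with TMM factors) in WTVeh cultures 1 to 3 and at 67.6 CPM in culture 4. Over all 4 groups, 18 tested genes were more than 8-fold above every batch 1 library of their group in the batch 2 library and 1 gene, Gapdh, was below by this factor. The KO cultures labelled 2 had Shank3 at 162 and 159 CPM, against 82.0 to 97.9 CPM in the other KO libraries, and the comparisons with KO are given with and without them. Shank3, the postsynaptic scaffold gene targeted in the KO, was at 204, 169, 236 and 267 CPM in WTVeh and at 221, 188, 214 and 261 CPM in WTLi. Its log2 fold change was 0.02 ± 0.05 (SE), and an exact permutation test by flipping the signs of the 4 pair differences gave a two-sided p of 0.875, where the smallest possible is 0.125.

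The labelled tissue was checked against marker genes of 14 cell types. All 12 neuronal markers were measured, from Elavl4 at 25.6 CPM in its lowest WT library to Stmn2 at 1126 CPM in its highest, and all 12 astrocyte markers were measured too, with Gfap, the intermediate filament of astrocytes, at 2395 to 5546 CPM. Microglia were thin and uneven. The fractalkine receptor Cx3cr1 was at 32.8, 7.71, 0.727 and 0.459 CPM in WTVeh and at 20.6, 21.0, 0.941 and 1.36 CPM in WTLi. Itgam and Trem2 were at 0 in the lowest library, and 0 of 6 red blood cell genes passed the filter on low counts.

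No gene was called between WTLi and WTVeh. Of 14783 tested genes, 0 (percent called 0) passed an adjusted p under 0.01 with a fold above 1.2 in edgeR's quasi-likelihood test, 0 passed an adjusted p under 0.05, and the smallest adjusted p was 0.238. At an unadjusted p under 0.05, 812 genes (5.49%) were higher and 637 genes (4.31%) were lower in WTLi, and 26 genes had a p under 0.001. In all 4 cultures, 1299 genes (8.79%) were higher and 1174 genes (7.94%) were lower with Li. DESeq2 and limma-voom with the same terms also called 0 genes, with 929 and 1600 genes at an unadjusted p under 0.05, and limma-voom had 2 genes at an adjusted p under 0.05, 1700047I17Rik2 and Entpd4b, both named after their values were seen. The study's own terms, group and replicate number, gave 0 calls and 217 genes at an unadjusted p under 0.05 in edgeR. The exception was edgeR without a filter on low counts, which called 84 genes, 77 higher and 7 lower. In that fit the prior degrees of freedom, the weight given to the trend over a gene's own spread, were 231 against 8.52 with the filter, and limma-voom and DESeq2 without the filter called 0 genes.

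**Figure D1:**
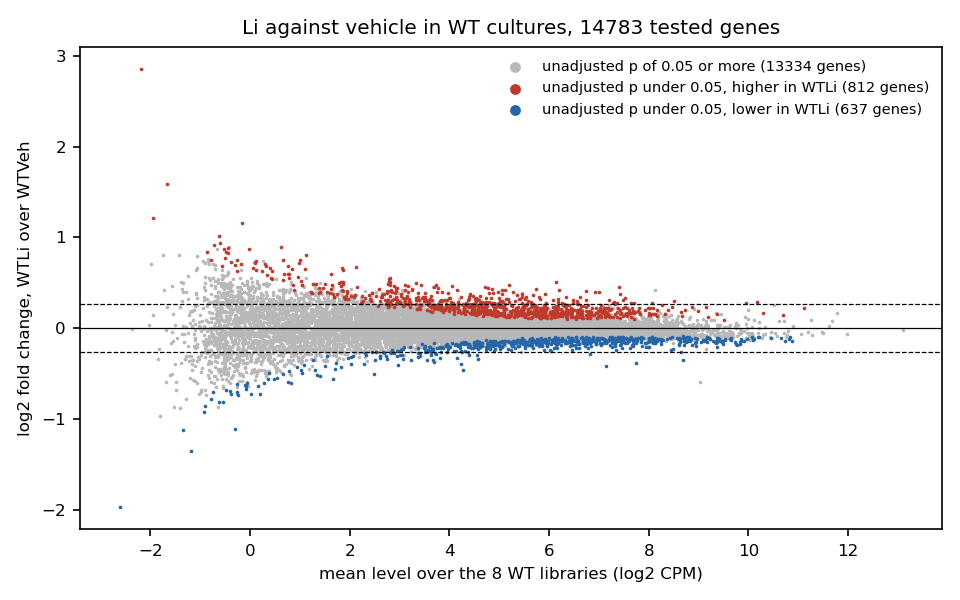
Log2 fold change between WTLi and WTVeh (vertical) against the mean level over the 8 WT libraries (horizontal, log2 CPM), 1 point for each of 14783 tested genes, with dashed lines at a fold of 1.2. Points are coloured for an unadjusted p under 0.05 (812 higher, 637 lower), and 0 genes were called. Of the 13084 genes averaging 1 log2 CPM or more, 539 lie beyond the dashed lines.

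The differences were small wherever counts were deep. The median absolute log2 fold change was 0.07 over all tested genes, with 0.13 in the tercile of genes with the lowest levels and 0.06 in the tercile with the highest, where the median SE was 0.05. For 7865 genes (53.2%) the 95% interval of the fold change lay wholly inside a fold of 1.2 in either direction, and among the 13084 genes whose average level reached 1 log2 CPM this held for 60.1%. For the other genes the interval reached beyond a fold of 1.2 on at least 1 side. The plot of change against level shows the spread narrowing to the right.

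Genes with the smallest p among those higher in all 4 cultures included secreted guidance and membrane proteins. Ntn1, the axon guidance cue netrin 1, was at 38.1, 45.7, 21.8 and 88.0 CPM in WTVeh and at 43.7, 59.1, 27.1 and 110 CPM in WTLi. Every culture was higher with Li, although the cultures differed from each other by far more than the treatments did. Its log2 fold change was 0.30 ± 0.05 (SE, 4 pairs, adjusted p = 0.238 in edgeR). Pgm5, the adhesion protein aciculin of the phosphoglucomutase family, was at 40.1, 35.5, 14.2 and 107 CPM in WTVeh and at 47.6, 54.3, 17.2 and 135 CPM in WTLi, with a log2 fold change of 0.37 ± 0.06 and the same adjusted p. Nes, the intermediate filament nestin of neural progenitors and reactive astrocytes, was at 208, 311, 144 and 378 CPM in WTVeh and at 227, 405, 176 and 474 CPM in WTLi. Its log2 fold change was 0.28 ± 0.06 with an adjusted p of 0.427. The other 7 of the 10 chosen by this rule were Rgs12, a regulator of G protein signalling, Btbd7, the transcription factor Glis3, Tmem252, the heparan sulfate proteoglycan syndecan 1 (Sdc1), the guanine nucleotide exchange factor Plekhg2 and the TGF-beta-binding protein vasorin (Vasn). Their log2 fold changes lay between 0.27 for Rgs12 and 0.49 for Tmem252, all with an adjusted p of 0.427.

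**Figure D2:**
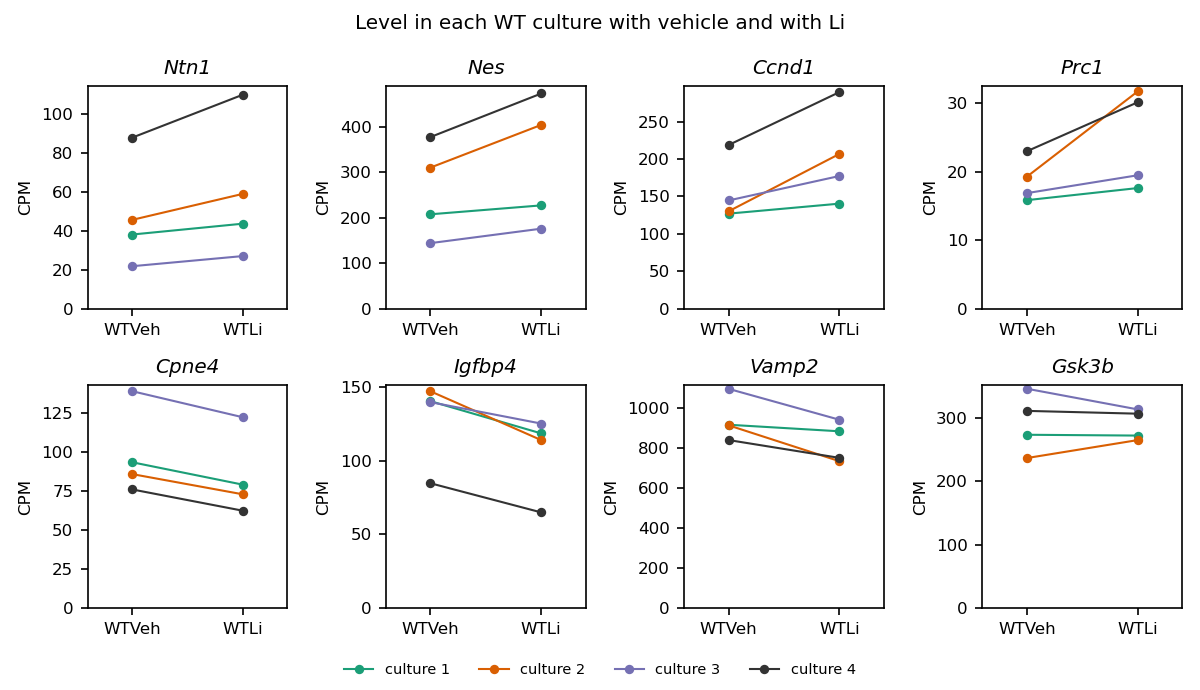
Level in CPM (vertical, from 0) of 8 genes in each of the 4 WT cultures with vehicle (WTVeh) and with Li (WTLi), where a line joins the 2 libraries of a culture. Ntn1, Nes, Ccnd1 and Prc1 run upward and Cpne4, Igfbp4 and Vamp2 downward in all 4 cultures, whereas Gsk3b runs upward in culture 2 alone, and the distance between cultures exceeds the slope for most genes.

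Genes with the smallest p among those lower in all 4 cultures included several genes of neurons. Cpne4, a calcium-dependent membrane-binding copine, was at 93.4, 85.8, 139 and 76.0 CPM in WTVeh and at 79.0, 72.8, 122 and 62.3 CPM in WTLi. The 4 pair differences were close together, from -0.29 to -0.19 on the log2 scale, and the log2 fold change was -0.24 ± 0.04 (SE, adjusted p = 0.292 in edgeR). Igfbp4, a binding protein that holds insulin-like growth factors, was at 141, 147, 140 and 84.7 CPM in WTVeh and at 119, 114, 125 and 64.9 CPM in WTLi, with a log2 fold change of -0.29 ± 0.06 and an adjusted p of 0.427. Within each culture Li gave the lower value, but WTVeh culture 4 was below 3 WTLi libraries. Neurod6, a transcription factor of excitatory forebrain neurons, had 206, 226, 309 and 156 CPM in WTVeh and 183, 188, 283 and 136 CPM in WTLi, a log2 fold change of -0.19 ± 0.05. A further 6 were Frat1, the vacuolar proton pump subunit Atp6v1g2, the bromodomain gene Brdt, the single-strand DNA-binding gene Nabp1, the Ras-like gene Rerg and the axon-forming gene Shtn1, with log2 fold changes from -0.35 (Frat1) to -0.18 (Shtn1).

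The largest differences under the same conditions belonged to weakly expressed genes, with Il33 at a mean of 23.8 CPM in WTVeh as the exception. Higher with Li in all 4 cultures were Gm37800 (log2 fold change 0.81 ± 0.23), Rsad2 (0.67 ± 0.20), Crybg1 (0.67 ± 0.22), Gm11766 (0.65 ± 0.23) and Rtp4 (0.64 ± 0.26), of which Rsad2 and Rtp4 are interferon-induced. Lower in all 4 were Spink8 (-0.56 ± 0.16), Stac2 (-0.53 ± 0.15), 1500035N22Rik (-0.52 ± 0.16), Flywch2 (-0.50 ± 0.20) and the alarmin cytokine Il33 (-0.46 ± 0.14). Their adjusted p ranged from 0.449 to 0.487, so none passed the threshold.

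Among the direct targets of Li, the transcripts of Gsk3b, Gsk3a and Impa1 had 95% intervals inside a fold of 1.2, whereas Impa2, the second inositol monophosphatase, ran from -0.22 to 0.46. Gsk3b was at 273, 237, 346 and 311 CPM in WTVeh and at 272, 265, 313 and 307 CPM in WTLi, which overlapped, with culture 2 higher and the other 3 lower. Its log2 fold change was -0.0024, with a 95% interval from -0.11 to 0.10. Gsk3a had 96.9, 103, 105 and 102 CPM in WTVeh and 94.2, 92.3, 100.4 and 99.0 CPM in WTLi, lower in all 4 cultures, with a log2 fold change of -0.08 ± 0.04 and an adjusted p of 0.573. Impa1, the inositol monophosphatase blocked by Li, had 52.4, 53.9, 52.0 and 50.7 CPM in WTVeh and 52.1, 49.6, 54.6 and 46.0 CPM in WTLi, a log2 fold change of -0.05 with an interval from -0.17 to 0.07. Of the 16 tested genes of Li-sensitive phosphatases and the inositol cycle, 8 lay above and 8 below 0, and 0 had an unadjusted p under 0.05 in either direction. Slc5a3, the sodium-coupled inositol transporter, had the largest value of that list at 0.15 ± 0.09, with 22.8, 29.5, 33.8 and 34.9 CPM in WTVeh and 24.4, 40.8, 37.2 and 33.3 CPM in WTLi. The list spanned -0.15 (the inositol trisphosphate kinase Itpka) to 0.15, all inside a fold of 1.2.

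Among 20 GSK3 partners and regulators, 2 were lower at an unadjusted p under 0.05 and 0 were higher, a share of 10% beside 4.31% of all tested genes. The count was 4 without culture 2 and 1 in the study's own terms. Frat1, which binds GSK3 and keeps it from its substrates, was at 9.63, 9.79, 11.4 and 11.5 CPM in WTVeh and at 7.66, 6.81, 9.74 and 8.94 CPM in WTLi. Of these 4 Li values only the 9.74 CPM of culture 3 reached into the WTVeh range, and the log2 fold change was -0.35 ± 0.09 (adjusted p = 0.449). Arrb2, the scaffold beta-arrestin 2, had a log2 fold change of -0.20 ± 0.06 (adjusted p = 0.449). Ctnnb1, beta-catenin itself, had one of 0.03 with an interval from -0.06 to 0.12, and Gys1, the glycogen synthase that GSK3 phosphorylates, was at 0.09 ± 0.08.

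Of 24 target and feedback genes of beta-catenin, 4 were higher at an unadjusted p under 0.05 and 0 were lower, with a list median of 0.04. The share higher was 16.7%, beside 5.49% of all tested genes, and the count was 3 to 6 with 1 culture left out and 0 in the study's own terms. The median by culture was 0.06, 0.14, -0.05 and 0.13. Ccnd1, the cyclin D1 that drives cells into S phase, was at 127, 130, 145 and 219 CPM in WTVeh and at 140, 207, 177 and 289 CPM in WTLi. It was higher in all 4 cultures, most in culture 2, and the log2 fold change was 0.38 ± 0.09 (adjusted p = 0.449). Tcf7, a TCF factor, had 0.39 ± 0.13, the secreted Wnt antagonist Sfrp1 had 0.30 ± 0.08 and Dkk3 had 0.16 ± 0.07. Axin2, the feedback gene most used to read the pathway, was at 26.7, 22.8, 24.5 and 28.7 CPM in WTVeh and at 31.8, 26.5, 23.1 and 29.2 CPM in WTLi. Its log2 fold change of 0.10 had a 95% interval from -0.04 to 0.24 (adjusted p = 0.633), and culture 3 was lower. Lef1, Notum, Nkd2 and Fgf9 lay below 0 (-0.22, -0.47, -0.18 and -0.21) and Sp5 above (0.47), each with an unadjusted p of 0.0827 or more.

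**Figure D3:**
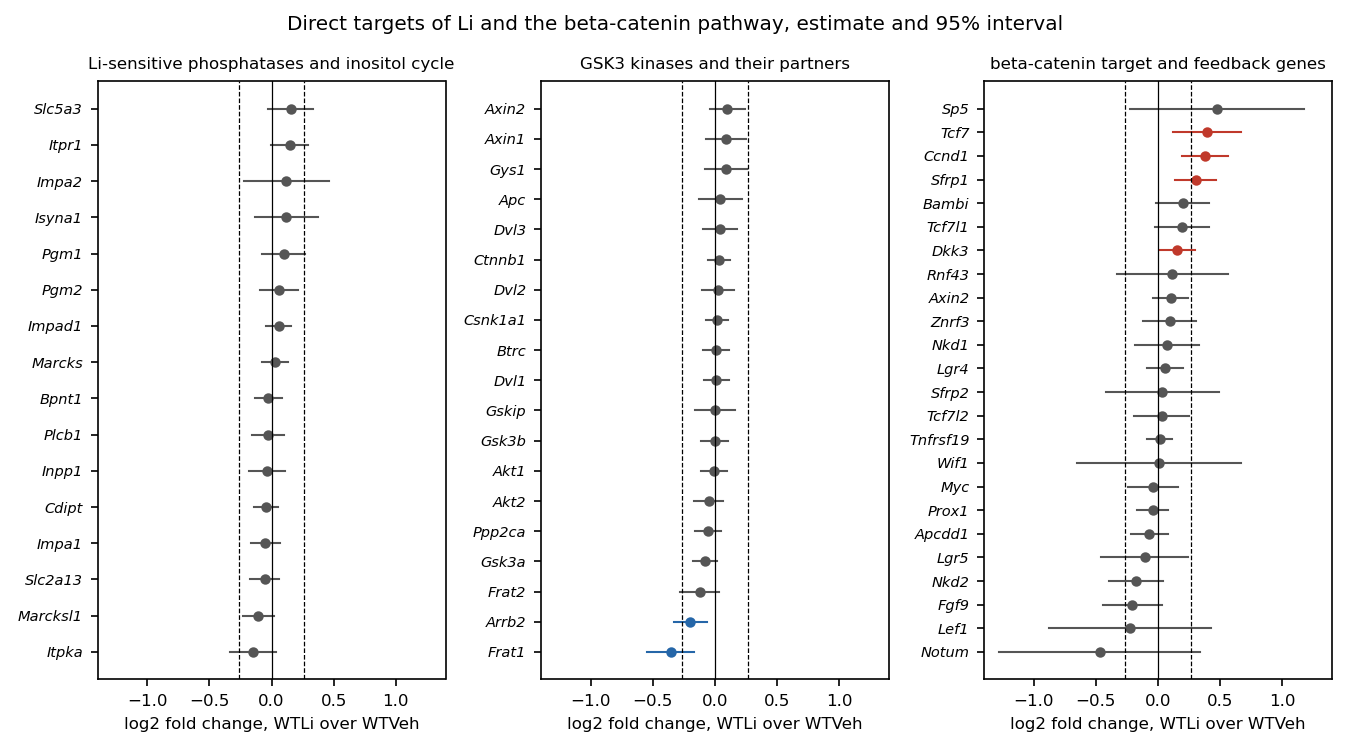
Log2 fold change between WTLi and WTVeh (horizontal) with its 95% interval for tested genes of 3 lists, less 1 of the GSK3 list (Axin2 stands in 2 of them), with dashed lines at a fold of 1.2 and colour for an unadjusted p under 0.05 (red higher, blue lower). The 16 genes of the inositol list and most GSK3 partners cluster around 0, while Frat1 and Arrb2 lie to the left and Tcf7, Ccnd1, Sfrp1 and Dkk3 to the right.

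Most genes of mitosis had estimates above 0, and 0 were called. Of 44 tested genes of mitosis and chromosome segregation, 42 lay above 0, and 13 were higher and 0 lower at an unadjusted p under 0.05 (29.5%, beside 5.49% of all tested genes). In all 4 cultures 10 were higher (22.7%, beside 8.79%). The list median was 0.22, beside 0.00048 over all tested genes. The cultures differed: the median of the list was -0.13 in culture 1, 0.38 in culture 2, 0.19 in culture 3 and 0.30 in culture 4. The number at an unadjusted p under 0.05 was 6 without culture 2 or without culture 4 and 27 without culture 1. In the study's own terms it was 6. Prc1, which bundles the microtubules of the central spindle, was at 15.8, 19.3, 16.9 and 23.0 CPM in WTVeh and at 17.6, 31.7, 19.5 and 30.1 CPM in WTLi. Culture 2 had the largest pair difference (0.72), and the log2 fold change was 0.37 ± 0.09 (adjusted p = 0.449). Ckap2, a microtubule-associated protein of mitosis, had 18.7, 26, 15.3 and 25.5 CPM in WTVeh and 19.7, 36.5, 20.1 and 31.9 CPM in WTLi, a log2 fold change of 0.32 ± 0.09, and the spindle assembly factor Tpx2 had 0.33 ± 0.09.

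A pair of sequence elements is well known in the promoters of mitotic genes, the cell cycle genes homology region (CHR, TTTGAA), bound by the MuvB complex, and the CCAAT box (CCAAT), bound by NF-Y. Both were searched on both strands in RefSeq promoters of GRCm38.p6, 300 bases from 250 before to 50 after the start. TTTGAA was in 32 of 40 promoters (80%) of the 38 mitosis genes with an entry, against 17.9% of all 32851 promoters, and CCAAT in 31 (77.5%) against 37.4%. The promoters of 2 of the 3 mitosis genes with the smallest p are shown from 120 bases before to 50 after the start, with both elements in capitals (ATTGG is CCAAT on the other strand).
Prc1, chr7:80294331-80294500, plus strand: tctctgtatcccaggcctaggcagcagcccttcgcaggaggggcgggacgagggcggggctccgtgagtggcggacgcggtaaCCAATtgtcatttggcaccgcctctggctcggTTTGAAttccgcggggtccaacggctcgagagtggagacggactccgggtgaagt
Ckap2, chr8:22185770-22185939, minus strand: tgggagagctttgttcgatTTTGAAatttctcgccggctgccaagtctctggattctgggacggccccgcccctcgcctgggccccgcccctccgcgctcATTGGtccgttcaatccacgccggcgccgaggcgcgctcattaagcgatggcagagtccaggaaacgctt
Each of them holds 1 TTTGAA and 1 CCAAT in this stretch. Among promoters of the replication list, TTTGAA was in 4 of 34 (11.8%), and CCAAT was in 20 (58.8%). A match describes the letters only.

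DNA replication and nucleotide synthesis went the same way with smaller values. Of 37 tested genes, 32 lay above 0, and 6 were higher (16.2%, beside 5.49% of all tested genes) and 0 lower at an unadjusted p under 0.05. The median was 0.13, with -0.07 in culture 1 and 0.14 to 0.24 in cultures 2 to 4. Without culture 2 or without culture 4 the count was 2, and without culture 1 it was 11. It was 2 in the study's own terms. Rfc1, the large subunit of the clamp loader, had a log2 fold change of 0.16 ± 0.05 and was higher in all 4 cultures. Rrm1, a subunit of ribonucleotide reductase, had 0.24 ± 0.07 and Uhrf1, which copies DNA methylation, had 0.25 ± 0.11. Of the 9 neural progenitor genes, 8 lay above 0 and 2 (22.2%) were higher at an unadjusted p under 0.05, Nes and Sox2 (0.17 ± 0.06). In the study's own terms 0 were higher. The summed level of the 9 was 1242 to 3027 CPM in WTVeh and 1548 to 3694 CPM in WTLi.

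Most presynaptic genes had estimates below 0, and 0 were called. Of 34 genes of the presynaptic vesicle cycle, 32 lay below 0, and 17 were lower and 0 higher at an unadjusted p under 0.05 (50%, beside 4.31% of all tested genes). In all 4 cultures 12 were lower (35.3%, beside 7.94%). The median was -0.12, and by culture it was -0.02, -0.13, -0.14 and -0.16. Leaving out 1 culture at a time gave 9 to 20 such genes, and the study's own terms gave 5. Vamp2, the vesicle SNARE synaptobrevin 2, was at 918, 915, 1098 and 842 CPM in WTVeh and at 886, 735, 943 and 752 CPM in WTLi. It was lower in every culture, least in culture 1, with a log2 fold change of -0.19 ± 0.05 (adjusted p = 0.449). Syn1, the synapsin that tethers vesicles, had 531, 453, 587 and 511 CPM in WTVeh and 504, 409, 497 and 457 CPM in WTLi, a log2 fold change of -0.16 ± 0.04. Cplx1, the complexin that clamps release, had -0.17 ± 0.05.

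Postsynaptic scaffolds and glutamate receptors had 41 of 48 genes below 0 and a median of -0.08. At an unadjusted p under 0.05, 9 were lower (18.75%, beside 4.31% of all tested genes) and 0 higher. By culture the median was -0.0030 and -0.0044 in cultures 1 and 2 and -0.14 and -0.15 in cultures 3 and 4. Without culture 4 the count was 3, without culture 3 it was 4 and in the study's own terms it was 1. Dlg4, the postsynaptic density protein PSD-95 that binds the SHANK3 scaffold through SAPAP proteins, had a log2 fold change of -0.14 ± 0.05, and the AMPA receptor auxiliary subunit Cacng2 had -0.16 ± 0.06. Of 43 voltage-gated channel genes, 31 lay below 0 and 6 (14.0%) were lower at an unadjusted p under 0.05, among them Cacnb1 (-0.14 ± 0.05) and the pacemaker channel Hcn2 (-0.14 ± 0.05). The channel list differed by culture, with medians of 0.07, 0.10, -0.17 and -0.13. Without culture 3 its median was 0.01, with 23 of 43 above 0. The count of lower genes was 3 without culture 4 and 1 in the study's own terms.

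Of 20 genes of GABA synthesis and receptors, 16 lay below 0 and 4 were lower at an unadjusted p under 0.05 (20%, beside 4.31% of all tested genes). The count was 2 without culture 3 or without culture 4 and 0 in the study's own terms. Gad1, the main GABA-producing enzyme, was at 320, 286, 276 and 181 CPM in WTVeh and at 315, 219, 257 and 163 CPM in WTLi. The pair difference was -0.02 in culture 1 and -0.39 in culture 2, and the log2 fold change was -0.16 ± 0.06 (adjusted p = 0.463). Of 14 interneuron genes, 11 lay below 0 and 7 (50%) were lower at an unadjusted p under 0.05, or 2 without culture 2 and 0 in the study's own terms. The 7 included the peptide somatostatin (Sst, -0.19 ± 0.07), the transcription factor Lhx6 (-0.30 ± 0.08) and calretinin (Calb2, -0.24 ± 0.06).

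General neuronal markers went the same way as these lists, and their part in the result was not tested. Of 12 markers, 10 lay below 0, and 9 were lower (75%, beside 4.31% of all tested genes) and 0 higher at an unadjusted p under 0.05. Their median was -0.14, with -0.01 in culture 1 and -0.23 to -0.13 in the others. The count was 4 without culture 3 and 5 without culture 4, and 1 in the study's own terms. Their summed level was 4611 to 6631 CPM in WTVeh and 4173 to 6158 CPM in WTLi, and none was at 0. Stmn2, the growth cone protein SCG10, was at 810, 1090, 1126 and 638 CPM in WTVeh and at 693, 903, 1094 and 597 CPM in WTLi, a log2 fold change of -0.16 ± 0.05. The growth-associated gene Gap43 had -0.19 ± 0.05 and the neurofilament gene Nefl had -0.23 ± 0.07. Among 12 markers of excitatory hippocampal neurons, 9 lay below 0 and 2 (16.7%) were lower at an unadjusted p under 0.05, Emx1 (-0.19 ± 0.07) and Neurod6. In the study's own terms 1 was lower.

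**Figure D4:**
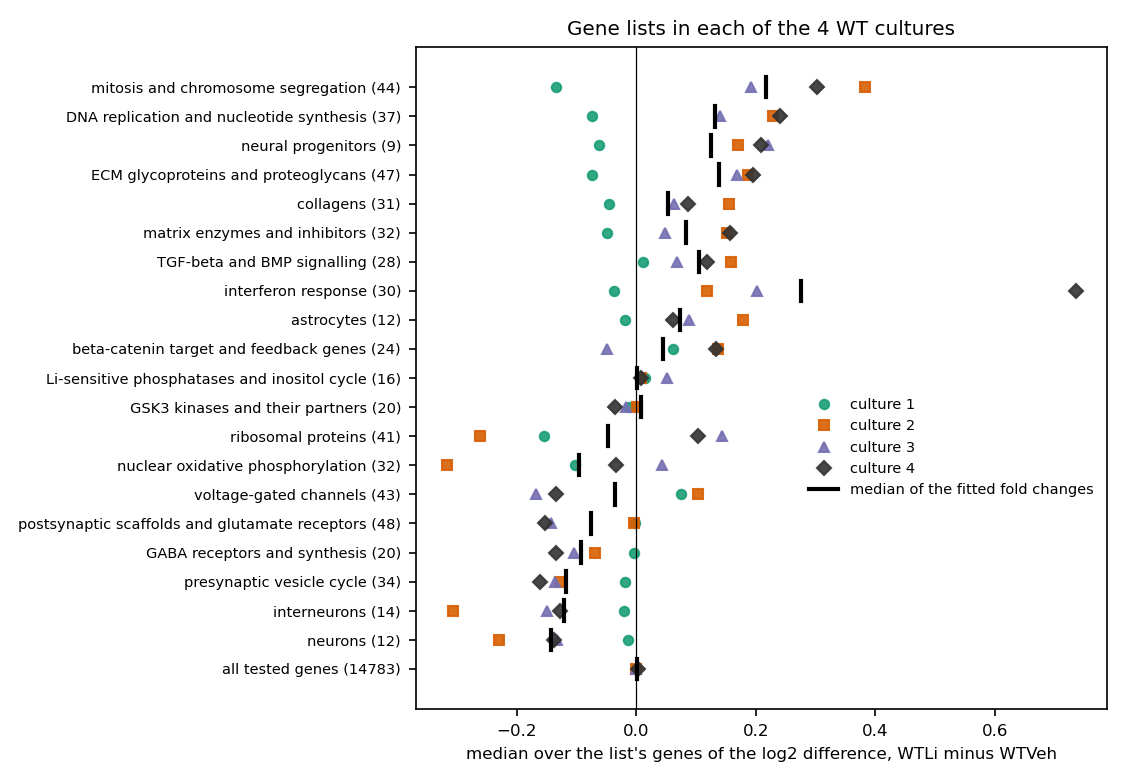
Median over the genes of each list of the log2 difference between WTLi and WTVeh (horizontal), as 1 symbol for each of the 4 WT cultures, with a black bar for the median of the fitted fold changes and the number of tested genes in brackets. Cultures 2 to 4 lie right of 0 for the mitosis, replication and ECM lists and left of 0 for the presynaptic and neuron lists, whereas culture 1 lies near 0 or on the other side, and the interferon list is drawn out by culture 4 (0.73).

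Extracellular matrix (ECM) genes were split but leaned upward. Of 47 ECM glycoproteins and proteoglycans, 34 lay above 0. At an unadjusted p under 0.05, 18 were higher (38.3%, beside 5.49% of all tested genes) and 3 were lower (6.38%, beside 4.31%). The median was 0.14, with -0.07 in culture 1 and 0.17 to 0.20 in cultures 2 to 4. The number higher was 9 without culture 2, 8 without culture 4 and 1 in the study's own terms, and the median was 0.06 without culture 2. Igfbp2, the growth factor binding protein of glia, was at 665, 962, 649 and 1619 CPM in WTVeh and at 637, 1138, 890 and 2219 CPM in WTLi. Culture 1 was slightly lower and the other 3 were higher, with a log2 fold change of 0.27 ± 0.08 (adjusted p = 0.449). Ltbp2, a microfibril protein of the latent TGF-beta binding family, had 21.8, 21.0, 13.9 and 145 CPM in WTVeh and 24.1, 41.1, 19.3 and 188 CPM in WTLi, a log2 fold change of 0.48 ± 0.15. Igfbp4, described above, was on the lower side of this list.

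Basement membranes and collagens had fewer such genes. Of 14 basement membrane genes, 4 were higher (28.6%, beside 5.49% of all tested genes) and 0 lower at an unadjusted p under 0.05. In the study's own terms 0 were higher. The median was 0.04. Without culture 2 the median was -0.02, 8 of 14 lay below 0 and 1 was higher. Lama5, the laminin alpha 5 chain, was at 32.5, 43.1, 28.3 and 106 CPM in WTVeh and at 41.5, 77.2, 30.5 and 118 CPM in WTLi. It was higher in all 4 cultures, with culture 2 at a pair difference of 0.84, and the log2 fold change was 0.36 ± 0.12 (adjusted p = 0.455). Lamb2 had 0.20 ± 0.07. Of 31 collagens, 20 lay above 0, and 6 were higher (19.4%) and 1 was lower (3.23%) at an unadjusted p under 0.05. The number higher was 3 without culture 2 or without culture 4 and 0 in the study's own terms. The 6 included Col4a5 (0.22 ± 0.06), Col5a3 (0.21 ± 0.06) and Col5a1 (0.18 ± 0.06). Of 32 matrix enzymes and inhibitors, 7 (21.9%) were higher and 0 lower, including the collagen-modifying Plod2 (0.25 ± 0.07) and the metalloprotease inhibitor Timp3 (0.28 ± 0.09). Their median was 0.08, and 0.02 without culture 4. The number higher was 3 without culture 2 or without culture 4 and 0 in the study's own terms. In the TGF-beta and BMP list, 5 of 28 genes (17.9%) were higher and 0 lower, among them Bmp6 (0.28 ± 0.08), Smad5 (0.18 ± 0.06) and Tgfb3 (0.38 ± 0.10). The number higher was 3 without culture 4 and 0 in the study's own terms.

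Cell types that carry such genes were read beside them, and their part was not tested. Of 12 astrocyte markers, 8 lay above 0 and 2 were higher at an unadjusted p under 0.05 (16.7%, beside 5.49% of all tested genes). They were the glial transcription factor Sox9 (0.18 ± 0.08) and the water channel Aqp4 (0.24 ± 0.10), while Aldoc was lower in all 4 cultures (-0.12 ± 0.06). The 2 became 0 without culture 2, without culture 4 and in the study's own terms, and 1 without culture 1 or culture 3. The summed level of the 12 markers was 8540 to 11928 CPM in WTVeh and 9313 to 13279 CPM in WTLi. Of 10 mural markers 6 were tested, and Myh11, Kcnj8, Abcc9 and Des did not pass the filter on low counts. All 6 lay above 0, with a summed level of 102 to 246 CPM in WTVeh and 95.6 to 333 CPM in WTLi. Acta2 among them was at 39.4 to 225 CPM over the WT libraries. Cnn1, the smooth muscle calponin, was at 4.53, 4.22, 4.32 and 12.7 CPM in WTVeh and at 5.22, 8.97, 5.31 and 18.5 CPM in WTLi, a log2 fold change of 0.54 ± 0.18. The mural markers higher at an unadjusted p under 0.05 were 2 (33.3%), and 0 without culture 2 or in the study's own terms. Of 10 endothelial markers 6 were tested, with 4 above and 2 below 0, while Cldn5, Tek, Ly6c1 and Tie1 did not pass the filter on low counts. Pecam1 and Emcn reached at most 1.05 and 0.696 CPM in the WT libraries. Of the 6, 3 (50%) were higher at an unadjusted p under 0.05, or 1 without culture 2 or culture 3 and 0 in the study's own terms. The 3 were the VEGF receptors Flt1 (0.40 ± 0.17) and Kdr (0.25 ± 0.10) and the transporter Slco1a4 (0.33 ± 0.09). Of 14 microglial markers 0 had an unadjusted p under 0.05, and their medians by culture ran from -0.62 to 0.39. Markers of meningeal and other fibroblasts leaned the other way, with 4 of 12 above and 8 below 0 and a median of -0.03. At an unadjusted p under 0.05, 1 of them was higher and 0 were lower. By culture their median was -0.14, -0.12, 0.08 and 0.06. Without culture 2 it was 0.0006, with 6 above and 6 below 0.

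The interferon response leaned upward in the same 3 cultures and most in culture 4. Of 30 tested genes, 28 lay above 0, and 7 were higher (23.3%, beside 5.49% of all tested genes) and 0 lower at an unadjusted p under 0.05. In the study's own terms 0 were higher. The median was 0.28. By culture the median was -0.04, 0.12, 0.20 and 0.73, and without culture 4 it was 0.10 with 0 genes at an unadjusted p under 0.05. Rsad2, the antiviral protein viperin, was at 5.43, 4.04, 1.78 and 3.47 CPM in WTVeh and at 5.71, 7.75, 2.21 and 7.91 CPM in WTLi. The pair differences were 0.93 and 1.17 in cultures 2 and 4 and 0.07 and 0.30 in cultures 1 and 3. H2-D1, a class I antigen-presenting gene, had 69.2, 96.3, 37.7 and 74.7 CPM in WTVeh and 68.7, 105, 44.3 and 127 CPM in WTLi, a log2 fold change of 0.29 ± 0.11.

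Nuclear genes of oxidative phosphorylation lay below 0 in all 32 cases, and culture 2 had the largest difference. Of them, 6 were lower (18.75%, beside 4.31% of all tested genes) and 0 higher at an unadjusted p under 0.05, or 1 lower in the study's own terms. The median was -0.10. By culture it was -0.10, -0.32, 0.04 and -0.03, and without culture 2 the median was -0.02 with 1 gene at an unadjusted p under 0.05. Cox5a, a subunit of cytochrome c oxidase, was at 58.8, 69.8, 53.2 and 66.3 CPM in WTVeh and at 47.1, 56.2, 50.8 and 64.6 CPM in WTLi, a log2 fold change of -0.18 ± 0.06. Ribosomal protein genes had medians of -0.15, -0.26, 0.14 and 0.10 by culture, and their list median of -0.05 was 0.03 without culture 2. Gene length went with these values, and its part was not tested beyond an offset for length. In culture 2 the median log2 difference was -0.14 in the shortest tercile of genes and 0.14 in the longest, and in cultures 1, 3 and 4 these medians stayed between -0.04 and 0.05. An offset for gene length in each library, an alternative chosen after seeing the data, gave 16 higher mitosis genes, 17 lower presynaptic genes and 16 lower postsynaptic genes. Over all 14783 tested genes the offset gave 957 higher and 769 lower at an unadjusted p under 0.05, against 812 and 637 in the main fit. For oxidative phosphorylation it gave a median of -0.06 with 10 lower genes and all 32 below 0.

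Among other programs studied under Li, some had no clear direction, while most genes of cholesterol synthesis and most immediate-early genes lay below 0. The median was 0.00 for ATF4 targets and ER chaperones (1 of 30 genes higher), 0.00 for autophagy and lysosome (3 of 29 higher, 1 lower), 0.01 for the BCL2 family and apoptosis (1 of 22 higher, the survival gene Bcl2 at 0.20 ± 0.09, and 1 lower) and 0.01 for the circadian clock (1 of 22 higher, Arntl at 0.16 ± 0.07), all counts at an unadjusted p under 0.05. Over all tested genes 5.49% were higher and 4.31% were lower at that level. Cholesterol synthesis had 21 of 23 genes below 0 and a median of -0.07, or -0.01 without culture 2, with 1 lower at that level, Hmgcs1 (-0.14 ± 0.06). Immediate-early and activity-regulated genes had 20 of 28 below 0, with medians of 0.20, -0.19, -0.09 and -0.21 by culture. At that level 1 was higher and 0 lower, but without culture 1 the median was -0.14 and 8 were lower. Of all 14831 genes tested without culture 1, 961 were lower at that level. The higher gene of the list was Dusp1, the phosphatase that turns off MAP kinases. Dusp1 was at 14.3, 17.6, 15.9 and 46.2 CPM in WTVeh and at 17.8, 23.6, 21.1 and 50.3 CPM in WTLi, a log2 fold change of 0.30 ± 0.08 (adjusted p = 0.449). The list of CREB-linked peptides, neurotrophins and regulators had 10 genes above and 10 below 0, 1 higher and 2 lower at that level, and 0 higher and 7 lower without culture 1. The higher one was Ntrk2, the receptor of the neurotrophin BDNF (0.17 ± 0.07), and the lower ones were Sst and the kinase Sik1 (-0.15 ± 0.07).

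The same comparison in KO cultures shared no library with the WT comparison, although WT and KO cultures of a number may share an experimental batch. The study fitted such batches, so the 2 comparisons may not be independent. In KO too 0 genes were called. At an unadjusted p under 0.05 there were 966 genes (6.53%), or 757 without the KO cultures labelled 2. Of the 1449 WT genes at that level, 1153 (79.6%) had the same sign in KO, against 61.6% of all tested genes, and 216 also had an unadjusted p under 0.05 in KO in the same direction (14.9% of the WT genes and 22.4% of the KO genes), with 9 in the opposite one. Without the KO cultures labelled 2 the shares with the same sign were 74.0% and 57.9%, and 101 genes were shared in the same direction and 7 in the opposite one. Across genes the 2 log2 fold changes correlated by 0.21 (0.17 without these cultures), as a description only, since genes are not independent. Between single WT cultures the pair differences correlated by -0.09 to 0.17. Ntn1 had a log2 fold change of 0.28 ± 0.06 in KO, Nes 0.22 ± 0.06, Ccnd1 0.20 ± 0.09 and Vamp2 -0.11 ± 0.05. Without the cultures labelled 2 these 4 values were 0.26, 0.25, 0.10 and -0.05.

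**Figure D5:**
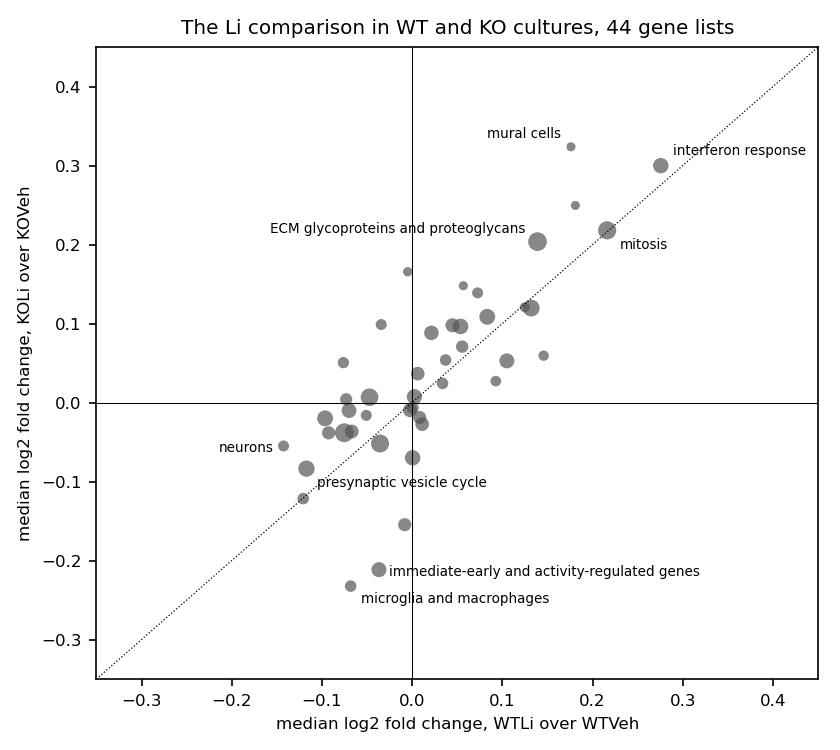
Median log2 fold change of 44 gene lists for Li against vehicle in WT (horizontal) and in KO cultures (vertical), with the point area growing with the number of tested genes and a dotted line of equal values. The mitosis, ECM and interferon lists lie in the upper right and the presynaptic and neuron lists in the lower left, and 35 of 44 lists have the same sign in WT and KO.

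The median of the mitosis list was 0.22 in KO (0.18 without the cultures labelled 2), that of the ECM list was 0.20 (0.14), that of the interferon list was 0.30 (0.36) and that of the presynaptic list was -0.08 (-0.06). By KO culture the mitosis medians were -0.02, 0.31, 0.18 and 0.28 and the ECM medians 0.07, 0.17, 0.29 and 0.21. The presynaptic medians were 0.0051, -0.07, -0.07 and -0.11. The interferon medians were -0.22, 0.13, 0.88 and 0.25, highest in KO culture 3, whereas in WT culture 4 was highest (0.73). Immediate-early genes had a median of -0.04 in WT and -0.21 (-0.24) in KO, where 13 of 28 (14 without these cultures) were lower at an unadjusted p under 0.05. Of all 14783 tested genes, 417 were lower at that level in KO with these cultures kept. The difference between the Li effects was tested gene by gene. It was called for 0 genes, and 422 genes (2.85%), or 437 without the KO cultures labelled 2, had an unadjusted p under 0.05. Among genes whose average level reached 1 log2 CPM, Igfbp4 ranked first, with a log2 fold change of 0.08 ± 0.06 in KO and a difference of -0.37 ± 0.08 (adjusted p = 0.999 in edgeR), or -0.41 without these cultures. Ptcd2, a mitochondrial RNA-processing gene, was at 22.3, 26.5, 23.2 and 19.4 CPM in WTVeh and at 18.9, 21.6, 21.2 and 17.9 CPM in WTLi, lower in 4 of 4 WT cultures and higher in 4 of 4 KO cultures, with a difference of -0.39 ± 0.10 (adjusted p = 0.999), or -0.36 without these cultures. Suv39h2, BC024978 and Calb2 had differences of the same order (-0.65, 0.40 and -0.34, or -0.67, 0.42 and -0.35 without these cultures). Gm14434, named after its values were seen, was the only gene at an adjusted p under 0.05 (0.0153, or 0.0214 without the KO cultures labelled 2). It was at 0 in every library of batch 1 and was measured in batch 2 alone, at 1.29 CPM in WTVeh, 9.56 CPM in WTLi, 15.2 CPM in KOVeh and 0.995 CPM in KOLi, so that the test rests on 1 culture of each genotype.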

How the data were processed

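Primary hippocampal cultures of WT and Shank3∆11(-/-) mice gave 16 RNA-seq libraries in 4 groups of 4. The authors aligned reads with HISAT2 2.0.5 to GRCm38.p6 and deposited raw counts per gene from featureCounts 1.5.0-p3. Whether counting used strand was not given in the sources used here, and reads of overlapping antisense genes cannot be told apart. Groups came from the labels. Both tables were joined on gene identifier (54532 genes), and genes of the biotypes kept by the study (33134) were filtered with filterByExpr (minimum count 15, minimum proportion 0.25), which left 14783. Counts were fitted with edgeR 4.0.16 in R 4.3.3 (quasi-likelihood, TMM scaling, all 16 libraries) with a term for each of the 8 cultures and a Li effect per genotype. Calls needed a fold above 1.2 together with an adjusted p (Benjamini-Hochberg, over all tested genes) under 0.01. The study's terms were group and replicate number. Same-numbered libraries of a genotype deviated together from their group means (correlations of 0.678, 0.590, 0.770 and 0.859 in WT, with the own number best in 4 of 4), and the pairing rests on this check, since the labels give only the shared number. P-values measure the spread between the paired libraries of all 8 cultures, WT and KO. That spread was 1 estimate for each gene, drawn toward a trend. With the 8 WT libraries alone, 1135 genes had an unadjusted p under 0.05 in edgeR and 0 were called. CPM were computed from the deposited counts with TMM scaling, and differences of pairs used a prior count of 2.

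The text names the 10 genes with the smallest p in each direction, the 5 largest rises and the 5 largest falls (all averaging 1 log2 CPM or more, with the same sign in all 4 pairs), the 3 members of each list with the smallest p, all members of the inositol, GSK3 and beta-catenin lists, the 5 genes with the smallest p for a difference between genotypes, and Shank3. Other names were added after their values were seen. A few genes that this rule takes in are not reported here. The members and lists were chosen with earlier results of these data known. Promoters came from RefSeq. Alternatives used limma 3.58.1, DESeq2 1.42.0, other scalings, filters and terms, and each culture left out in turn. The fit was tested on simulated data. Totals of 16123067 to 35188300 counts per library limit the precision of low genes most, since the median SE was 0.173 in the lowest tercile of level and 0.0546 in the highest.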

Additional observations from a re-analysis of the deposited data

Results flagged for a closer look

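In 77 groups of 4 values tested for a single distant sample, 9 had one by Dixon's criterion. Chance gives this in about 1 group in 20 of normally distributed values. The groups were mostly CPM of genes in the same 8 libraries and were not independent, so 9 of 77 cannot be set against that rate. In 8 of the 9 the distant value was culture 4, the only one of batch 2. Igfbp4 was at 84.7 CPM in WTVeh culture 4. Ltbp2 was at 145 CPM in WTVeh culture 4 and at 188 CPM in WTLi culture 4. Dusp1 was at 46.2 CPM and Cnn1 at 12.7 CPM in WTVeh culture 4. Gapdh was at 10.8 CPM in WTLi culture 4, and Gm14434 at 1.29 CPM in WTVeh and 9.56 CPM in WTLi of that culture. The ninth was the median pair difference of ECM glycoproteins and proteoglycans, which was -0.0738 in culture 1.

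The Li effect differed between WT and KO for 3 of the genes given by library, by opposite signs in every culture of each genotype (Stmn2 and Ptcd2, a difference not past the threshold of the test) or by an adjusted p under 0.05 (Gm14434). The difference, WT minus KO on the log2 scale, was -0.21 for Stmn2 and -0.39 for Ptcd2, each lower in 4 of 4 WT cultures and higher in 4 of 4 KO cultures, with an adjusted p of 0.999 for each in edgeR. It was 6.75 for Gm14434 (adjusted p = 0.0153), which was counted in culture 4 of each genotype alone.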

How the results depend on the processing

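The count of called genes between WTLi and WTVeh was 0 under every alternative except edgeR without a filter on low counts, which called 84. Genes at an unadjusted p under 0.05 numbered 1449, 929 with DESeq2, 940 with DESeq2 without the filter, 217 and 229 with the study's terms in edgeR and limma-voom, 748 in batch 1 alone and 902 to 1938 with 1 culture left out. With no replicate block, that is without pairing the libraries of a culture, they numbered 36 and 0 were called. The split of 812 higher and 637 lower was 889 and 544 with RLE scaling, 993 and 445 without scaling and 761 and 802 with all biotypes. The difference between genotypes was called for 0 genes, for 1 with limma-voom, 1 with the offset for gene length, 5 without the filter, 0 to 1 with 1 culture left out and 1 at an adjusted p under 0.05 with no fold limit. The cause was not tested. The offset for gene length and limma-voom and DESeq2 without the filter were chosen after seeing the data. Over 20 alternatives the medians of the mitosis, replication, ECM, presynaptic, neuron and interferon lists had 0 changes of sign. The median changed sign for basement membrane, ribosomal proteins and fibroblasts without replicate 2 and for voltage-gated channels without replicate 3. It also changed for the inositol and GSK3 lists (3 alternatives each), the CREB list (5), microglia (4), ATF4 targets (6) and autophagy (8), among others. Depth and 4 culture pairs limit low genes most.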
